A study of Mus musculus with 2 samples.

Results

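The genes described here are 10 members of the Wnt signalling pathway, picked by their symbols from the 32285 genes of the deposited tables. They comprise the ligands Wnt5a, Wnt11 and Wnt16, the secreted antagonists Sfrp1, Sfrp2, Dkk2 and Dkk3, and the nuclear and target genes Axin2, Lef1 and Tcf7. Single-cell RNA sequencing was performed on cells of the mouse skull vault 7 days after a bone defect was made in it. C57BL/6 mice received intraperitoneal injections of gambogic amide (GA), an agonist of the nerve growth factor receptor TrkA, at 1.2 mg/kg in 10% DMSO as the sample labels give it (the study's methods name another dose), or of 100 μL of vehicle with 10% DMSO alone. In both groups the injections began 24 h before the injury and were given daily for 1 week, and a piece of bone with an edge of about 3 mm around the defect was minced and digested with collagenases. Each group was 1 library of cells pooled from several young adult male mice. There is thus no replicate check of any difference between GA and control, no p-value is given, and animal, library and treatment cannot be told apart. Intervals are 95% intervals for the counting of molecules or cells only, and they hold neither the variation between mice nor that between libraries. Those of levels and ratios count molecules and so also leave out the variation between cells.

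Wnt proteins are secreted, lipid-modified ligands that bind Frizzled receptors with coreceptors such as LRP5 and LRP6. In the canonical branch they stabilise β-catenin, which then acts with DNA-binding factors of the TCF/LEF family on target genes; other ligands, Wnt5a and Wnt11 among them, are mostly known for signalling that does not need β-catenin. In bone, Wnt signals promote osteoblast formation, and they are held in check by secreted antagonists that bind either the ligands (the Sfrp family) or the coreceptors (the Dkk family).

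After quality limits and the removal of doublets, 8362 cells were kept in the GA library and 7529 in the control library, with a median of 10914.5 and 16874 unique molecular identifiers (UMIs, counts of captured mRNA molecules) per cell. Only 20 cell barcodes occurred in both libraries. The cells of the osteoblast and fibroblast lineage, called the mesenchymal lineage below, numbered 860 in GA and 1859 in control, with similar medians of 51930 and 51447 UMIs per cell. They include a small cluster of 30 and 12 cells whose leading genes and markers were those of neutrophils; without it the ratios of the 10 genes below kept their direction and their side of 2-fold. Of 9 fixed mesenchymal markers, 7 in GA and 8 in control were highest in this class of cells; Runx2 was not in either library. B-like, T or NK-like, neutrophil-like and endothelial-like cells had all of their fixed markers at their highest, 7, 8, 10 and 6 markers, in both libraries. Mononuclear phagocyte-like cells had 6 and 5 of 9 macrophage or monocyte markers and 1 of 8 dendritic markers at their highest, and progenitor-like cells 4 of 7. Neutrophil markers summed to 1179 counts per 1000000 UMIs of the class (CPM) within the mesenchymal lineage in GA and to 195 CPM in control, whereas B cell markers stood at 4.25 and 4.04 CPM there, against 6874 and 6018 CPM in B-like cells. Because every molecule is counted once from its 3′ end, the CPM values of different genes depend on how well each gene is captured, and they are compared below between cells and libraries, not between genes.

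Most of the 10 genes were mesenchymal. Wnt5a, Wnt16, Sfrp1, Sfrp2, Dkk2 and Dkk3 had between 96.9% and 99.4% of all their UMIs in the mesenchymal lineage, in both libraries. Axin2 had 78.0% in GA and 87.5% in control, Wnt11 67.7% and 72.3%, and Tcf7 37.7% and 53.6%. Tcf7 had 46.4% and 36.8% in T or NK-like cells, and by CPM Tcf7 and Axin2 were highest there in both libraries. The lineage itself held 47069917 of the 160238386 kept UMIs in GA and 104482033 of 187622680 in control. These percentages therefore also follow the size of the lineage in each library. Lef1 had the lowest share, with 0.766% of its UMIs in the mesenchymal lineage in GA and 4.91% in control, and was highest in B-like cells.

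**Figure D1:**
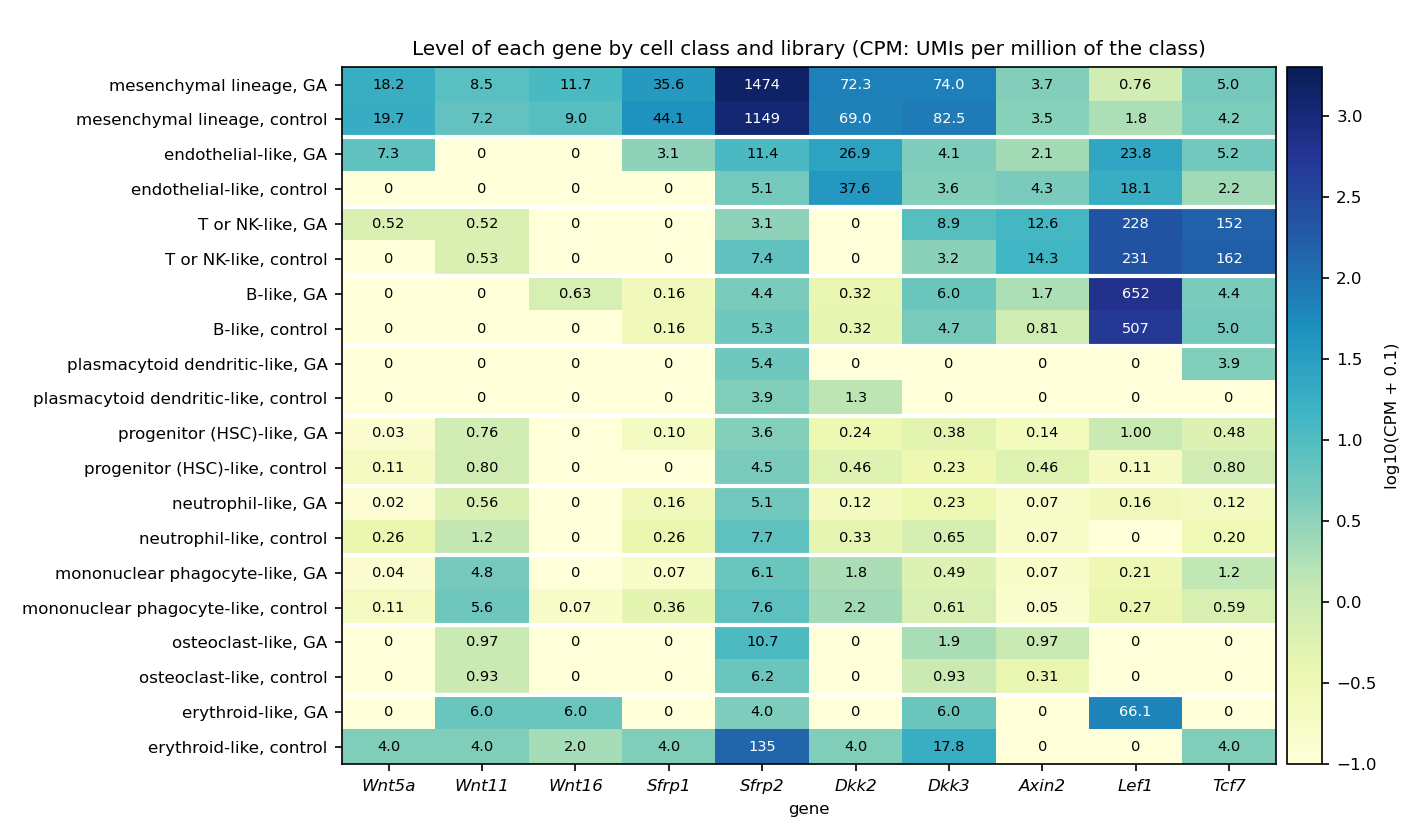
Heat map of the level of the 10 genes (columns) in each class of cells and library (rows), with the CPM printed in each field and the colour on a log10(CPM + 0.1) scale. Wnt5a, Wnt16 and the 4 antagonists stand highest in the mesenchymal lineage, and Lef1 in B-like and T or NK-like cells.

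Over the mesenchymal lineage taken as a whole, 9 of the 10 genes stayed within 2-fold between the libraries. Ratios within its clusters ran wider, as described below. Of the 10 genes, 0 were at least 2-fold higher in GA and 1, Lef1, was at least 2-fold lower, where 2.69% and 3.33% of the 15803 genes with at least 50 UMIs in these cells were past 2-fold in those directions. Counts this small over 10 genes do not set them apart from all genes. The median log2 ratio of GA over control was 0.06 over the 10 genes and -0.01 over all 15803. The middle of the distribution was wide enough to hold 9 of the 10 genes, since the 10th and 90th percentiles of all genes lay at -0.48 and 0.44.

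**Figure D2:**
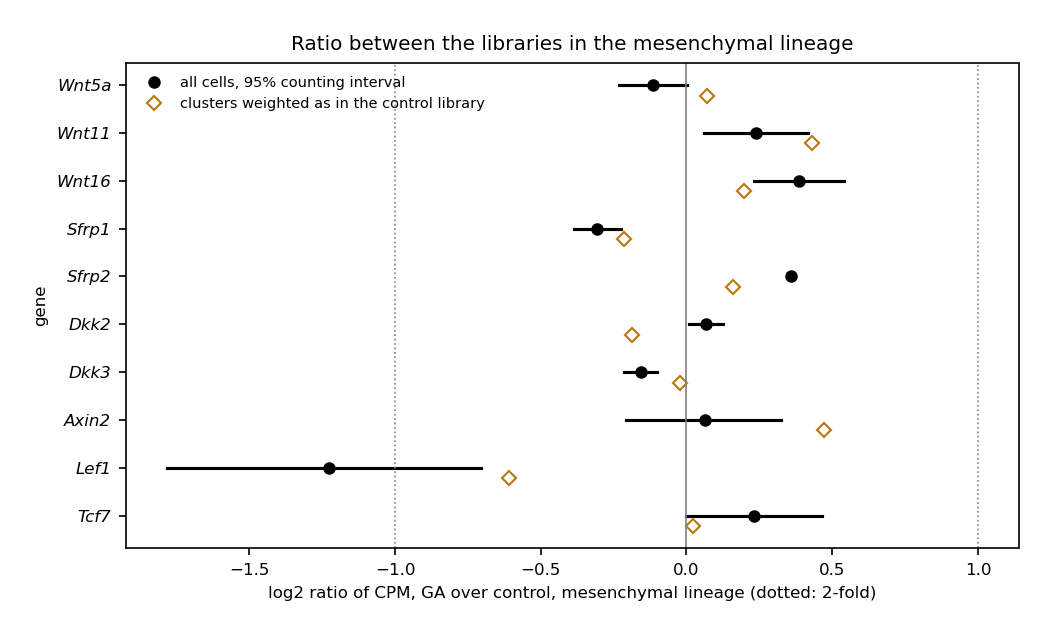
Log2 ratio of GA over control in the mesenchymal lineage for each of the 10 genes, as filled points with 95% counting intervals, and with the 12 clusters of the lineage weighted by their control shares as open diamonds. With all cells, Lef1 lies at -1.23, past the dotted 2-fold line, and the other 9 genes lie between -0.31 and 0.39.

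Wnt5a, a ligand of the β-catenin-independent branch that guides limb and skeletal outgrowth, stood at 18.2 CPM (17.0 to 19.4, 856 UMIs) in the mesenchymal lineage in GA and at 19.7 CPM (18.8 to 20.5, 2056 UMIs) in control. Both levels were close, with a log2 ratio of -0.11 (-0.23 to 0.00), and 32.3% of all genes had a lower ratio. Cells with at least 1 Wnt5a UMI made up 43.0% of the lineage in GA and 46.3% in control. The gene is protein-coding and lies on the plus strand at chr14:28504750-28527448 (GRCm38/mm10, GENCODE vM21).

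Wnt16, a ligand linked to cortical bone mass, stood at 11.7 CPM (10.8 to 12.8, 553 UMIs) in GA and 8.99 CPM (8.42 to 9.58, 939 UMIs) in control. This was the highest ratio of the 10 genes, at 0.39 (0.23 to 0.54), and 88.3% of all genes had a lower one. The share of cells with a UMI was also somewhat larger in GA, at 27.9% against 24.3%. With each cell thinned to 5000 UMIs these shares were 5.86% in GA and 4.52% in control, and with 2000 UMIs, from 15 and 48 cells, 1.79% and 2.58%, with overlapping intervals at both depths. It lies on the plus strand at chr6:22288227-22298522.

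Wnt11, a second β-catenin-independent ligand known for cell movements in early development, was the only ligand of the 3 with a sizeable part of its UMIs in blood cells. In the mesenchymal lineage it stood at 8.46 CPM (7.65 to 9.33, 398 UMIs) in GA and 7.16 CPM (6.66 to 7.69, 748 UMIs) in control, a log2 ratio of 0.24 (0.06 to 0.42). In mononuclear phagocyte-like cells it stood at 4.82 CPM (4.05 to 5.70) in GA and 5.61 CPM (4.93 to 6.35) in control. These UMIs came mostly from 1 of the clusters of that class, number 15 of the 34 clusters of all cells, whose leading genes include H2-Aa and Cd74 of antigen presentation. Wnt11 stood there at 29.4 CPM (24.2 to 35.4, 188 cells) in GA and 34.0 CPM (29.5 to 39.0, 318 cells) in control, with a UMI in 16.0% and 22.6% of the cells, whereas clusters 2, 5 and 10 of the same class lay between 0.27 and 4.77 CPM. The ratio within cluster 15 was -0.21 (-0.56 to 0.13), an interval that includes no difference. Wnt11 thus was at a higher level in these phagocytes than in the mesenchymal lineage taken as a whole, in both libraries. The gene lies on the plus strand at chr7:98835112-98855195.

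The windows before the transcription starts were searched for the TCF/LEF core motif, spelled CTTTGNN with A or T at each N, on both strands, to show which members carry the letters that the Lef1 and Tcf7 proteins are known to bind. RefSeq promoter entries (GRCm38.p6) were found for 7 of the 10 genes, with 12 start sites in all, and 250 bases before each start were searched. A match was found at 2 of the 12 starts, 1 of Wnt11 and an internal start of Lef1, while 14.8% of the 32851 promoters of all genes held one. The stretch before Wnt11 (chr7:98835031-98835097, plus strand) has its match 51 bases before the start, and that before the internal Lef1 start (chr3:131156117-131156183, plus strand) has it 147 bases before. Both matches are on the minus strand, so the capitals below, which mark them, read as the reverse complement of CTTTGAT and CTTTGTA.
Wnt11: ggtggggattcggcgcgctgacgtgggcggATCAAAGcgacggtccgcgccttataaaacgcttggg
Lef1: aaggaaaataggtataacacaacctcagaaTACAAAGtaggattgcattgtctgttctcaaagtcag
No match was present in the windows of Wnt16, Sfrp2, Dkk2, Axin2 and Tcf7. A match is a run of letters and not a measured binding site. Wnt5a, Sfrp1 and Dkk3 were not searched.

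In the mesenchymal lineage the secreted antagonists were the members with the most UMIs. Sfrp2, a Frizzled-related protein that can bind Wnt ligands outside the cell, stood at 1474 CPM (1463 to 1485, 69368 UMIs) in GA and at 1149 CPM (1142 to 1155, 120022 UMIs) in control. The log2 ratio was 0.36 (0.35 to 0.37), and 87.4% of all genes had a lower one. The difference was larger in the middle of the distribution over cells than at its top. The median cell stood at 933 CPM in GA and 236 CPM in control, the upper quartile at 2268 and 1933 CPM, and the 90th percentile at 3702 and 3883 CPM. At least 10 Sfrp2 UMIs were found in 70.6% of GA cells and 53.5% of control cells. With 2000 UMIs drawn at random per cell, an Sfrp2 UMI was found in 65.1% (61.8 to 68.3) of 837 GA cells and 46.9% (44.6 to 49.2) of 1858 control cells, and 23 and 1 shallower cells were set aside. Before thinning the shares were 84.5% and 77.1%. These medians and shares mix clusters of the lineage that made up unlike parts of the libraries, as described below. The median cell was lower in GA in lineage clusters 2 (2189 against 2922 CPM) and 4 (2753 against 3245 CPM). It was higher in GA in lineage clusters 1 (1079 against 295 CPM) and 7 (546 against 78.8 CPM). In neutrophil-like cells, which should lack the gene, 4.78% of cells in GA and 5.42% in control had an Sfrp2 UMI, at a median depth of 7086 and 5074 UMIs, and 1.30% and 2.16% did so after thinning. Sfrp2 lies on the plus strand at chr3:83766321-83774316.

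Sfrp1, the relative of Sfrp2 that acts in the same way, had a ratio of the opposite sign. It stood at 35.6 CPM (34.0 to 37.4, 1678 UMIs) in GA and 44.1 CPM (42.8 to 45.4, 4605 UMIs) in control, a log2 ratio of -0.31 (-0.39 to -0.23), and 15.8% of all genes had a lower ratio. A UMI was found in 38.1% and 42.4% of the cells. The gene lies on the plus strand at chr8:23411502-23449632.

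Dkk2, an antagonist that binds LRP5 and LRP6, stood at 72.3 CPM (69.9 to 74.8, 3404 UMIs) in GA and 69.0 CPM (67.5 to 70.6, 7213 UMIs) in control. The log2 ratio was 0.07 (0.01 to 0.13), and it had a UMI in 40.3% and 34.7% of the lineage's cells. Dkk2 was also detected in endothelial-like cells, at 26.9 CPM from 26 UMIs in GA and 37.6 CPM from 52 UMIs in control. The log2 ratio there was -0.48 (-1.22 to 0.22), which is not told from 0 at this depth. Only 6 of the 38 GA cells and 7 of the 32 control cells had a Dkk2 UMI. The 5 cells with the most held 25 of the 26 UMIs in GA and 45 of the 52 in control. The gene lies on the plus strand at chr3:132085292-132180304. Dkk3, a divergent family member for which binding to the LRP coreceptors is not established, was found in most cells of the lineage. It had a UMI in 83.1% of lineage cells in GA and 88.2% in control, at 74.0 CPM (71.6 to 76.5) and 82.5 CPM (80.8 to 84.3), a log2 ratio of -0.16 (-0.21 to -0.10). Dkk3 lies on the minus strand at chr7:112116017-112159057.

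Axin2, a scaffold of the β-catenin destruction complex and a widely used target gene of canonical signalling, did not differ detectably over the mesenchymal lineage taken as a whole. It stood at 3.70 CPM (3.17 to 4.29, 174 UMIs) in the mesenchymal lineage in GA and 3.54 CPM (3.19 to 3.92, 370 UMIs) in control, with a log2 ratio of 0.06 (-0.21 to 0.33), or 0.47 with the lineage's clusters weighted by their control shares. The weighted value lies above that interval, which is the interval of the unweighted ratio only. In lineage cluster 5 the Axin2 ratio was 1.25 (0.33 to 2.07) from 15 and 67 UMIs. Without the cell of each library with the most Axin2 UMIs it was 0.83, and without the 5 such cells it was 0.04. The part of this cluster in the weighted value was not tested. Among the 8 lineage clusters with the most Axin2 UMIs, 4 were higher in GA and 4 lower, with 2 intervals above 0 and 0 below. Of the clusters with fewer UMIs, cluster 6 stood at 2.36 (0.46 to 4.54) from 8 and 4 UMIs. Cluster 10 stood at 2.90 (0.05 to 8.36) from 9 and 1 UMIs. Clusters 11 and 12 were lower in GA, with intervals that include 0. In T or NK-like cells Axin2 stood higher, at 12.6 CPM (8.06 to 18.7, 24 UMIs) in GA and 14.3 CPM (9.45 to 20.9, 27 UMIs) in control, with a log2 ratio of -0.19 (-1.04 to 0.66). Axin2 lies on the plus strand at chr11:108920349-108950783.

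Tcf7, which encodes the DNA-binding factor TCF1 known from T cell development, had levels of 152 CPM (135 to 170) in T or NK-like cells of GA and 162 CPM (144 to 181) in those of control, a log2 ratio of -0.10 (-0.33 to 0.14). In the mesenchymal lineage it stood at 4.99 CPM (4.37 to 5.67, 235 UMIs) and 4.25 CPM (3.86 to 4.66, 444 UMIs), with a log2 ratio of 0.23 (-0.00 to 0.46). It was detected in 14.0% of the lineage's cells in either library. Tcf7 lies on the minus strand at chr11:52252371-52283014.

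Lef1, the other TCF/LEF factor among the members, had its highest level in B-like cells. It stood there at 652 CPM (632 to 672, 4132 UMIs) in GA and 507 CPM (490 to 526, 3143 UMIs) in control, a log2 ratio of 0.36 (0.29 to 0.43), with a UMI in 55.8% and 47.6% of the cells. In T or NK-like cells the level was 228 CPM (207 to 250) in GA and 231 CPM (210 to 254) in control, a ratio of -0.02 (-0.22 to 0.17), and in the few endothelial-like cells it was 23.8 and 18.1 CPM. In erythroid-like cells 33 Lef1 UMIs were counted in GA, all in 2 of 49 cells, and 0 in control, where the interval reaches to 7.30 CPM. In the mesenchymal lineage Lef1 stood at 0.765 CPM (0.536 to 1.06) from 36 UMIs in GA and 1.79 CPM (1.54 to 2.07) from 187 UMIs in control, a log2 ratio of -1.23 (-1.78 to -0.71). Few cells carried those UMIs, 24 of 860 (2.79%, 1.80 to 4.12) in GA and 69 of 1859 (3.71%, 2.90 to 4.67) in control, shares whose intervals overlap. The 5 lineage cells with the most Lef1 UMIs held 15 of the 36 in GA and 68 of the 187 in control, and a single control cell held 24. When clusters within the lineage were weighted alike in both libraries the ratio was -0.61, within 2-fold, and when no doublets were removed it was -0.43. Lef1 lies on the plus strand at chr3:131110471-131224356.

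The difference of Lef1 in B-like cells was not seen within the clusters of that class that held most of its UMIs. The numbers below are again those of the 34 clusters of all cells. Cluster 23 was led by Vpreb1, Igll1 and Dntt, genes of early B cell precursors, and every one of its cells had a Lef1 UMI. Lef1 stood in it at 1498 CPM (1446 to 1552, 130 cells) in GA and 1495 CPM (1430 to 1561, 86 cells) in control, a log2 ratio of 0.00 (-0.08 to 0.09). In cluster 21, led by Ebf1, Vpreb3 and Myl4, the level was 337 CPM (315 to 361) in GA and 332 CPM (311 to 354) in control, a ratio of 0.02 (-0.11 to 0.16). In cluster 13, led by the light chain gene Igkc, it was 132 CPM (115 to 152) and 113 CPM (97.3 to 131), a ratio of 0.23 (-0.07 to 0.53). Cluster 26, led by Igkc, Cd74 and H2-Aa, was lowest at 26.4 and 7.85 CPM. Only 3 of its 65 GA cells and 3 of its 84 control cells had a Lef1 UMI. Lef1 thus stood highest in cluster 23, led by precursor genes, and lower in clusters 13 and 26, led by Igkc, with cluster 21 between them, in both libraries. Cluster 23 held 32.7% of the UMIs of B-like cells in GA and 21.7% in control. With the clusters weighted by their UMI shares in control, the ratio of B-like cells was 0.03 in place of 0.36, a weighting chosen after the data had been seen.

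**Figure D3:**
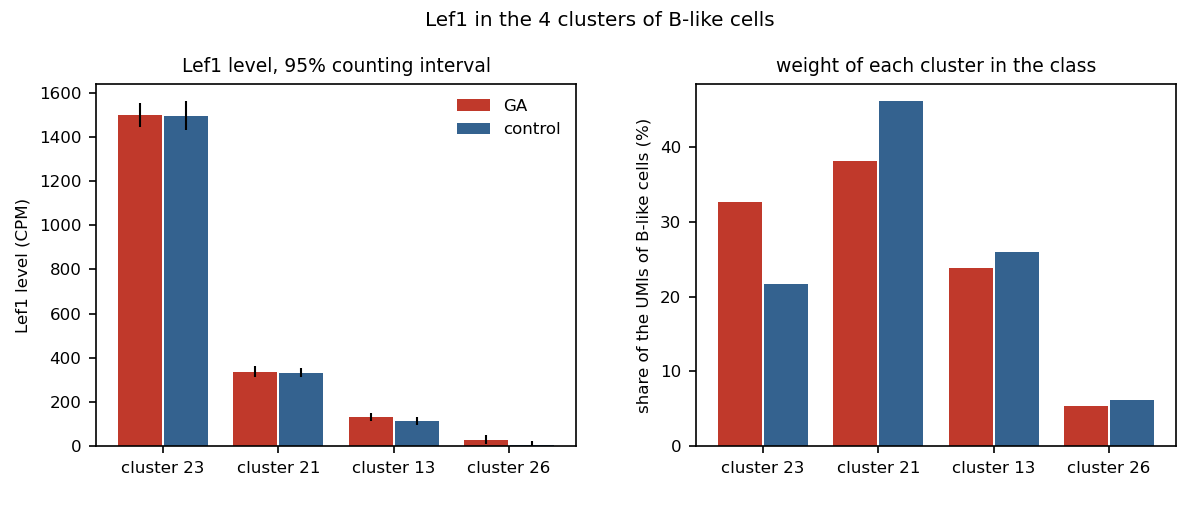
Lef1 level in the 4 clusters of B-like cells, as bars in CPM with 95% counting intervals, and beside it each cluster's share of the UMIs of B-like cells in percent, for GA and control. The levels are alike in clusters 23 and 21, at 1498 against 1495 CPM and 337 against 332 CPM, while the share of cluster 23 is 32.7% in GA and 21.7% in control.

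T or NK-like cells fell into a pair of clusters. Cluster 22, led by the T cell genes Cd3g and Trbc1, had Lef1 at 273 CPM in GA and 288 CPM in control, and Tcf7 at 173 and 196 CPM. Cluster 24, led by the NK genes Gzma and Klra4, had Lef1 at 148 and 167 CPM and Tcf7 at 115 and 124 CPM. Axin2 was likewise higher in cluster 22, at 17.3 and 24.0 CPM, than in cluster 24, at 4.31 and 3.40 CPM. In cluster 24 only 3 of 71 GA cells and 2 of 105 control cells had an Axin2 UMI.

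The mesenchymal lineage was divided into 12 clusters, numbered 1 to 12 here apart from the 34 above, without the use of Wnt pathway genes. The clusters describe where the members stood and were not tested against each other. Their shares differed between the libraries. Cluster 1, left unnamed and led by Dmkn, Sbsn and Adamts19, held 27.8% of lineage cells in GA (239 cells) and 14.7% in control (273 cells). Osteoblast-like cluster 10, led by the osteocalcin gene Bglap, held 6.28% and 2.42%, whereas the fibroblastic clusters 5, led by Eln and Mgp, and 9, led by Ptgds and Penk, held 3.14% against 11.8% and 1.98% against 7.26%. Neutrophil marker levels were higher in GA in each of the 12 clusters, for example 551 against 169 CPM in cluster 1 and 29363 against 3615 CPM in cluster 12. The last was a cluster of 30 GA cells and 12 control cells with a median of 764 and 66290.5 UMIs per cell. Their part in the ratios below was not tested.

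Sfrp2 ranged widely over these clusters and its ratio changed direction among them, as did those of Sfrp1 and Dkk2 below. It was highest in cluster 4, led by Cxcl14, Matn4 and Tnmd, at 3296 CPM in GA and 4280 CPM in control, and next in cluster 2, led by Pi16, C3 and Clec3b, at 2620 and 3015 CPM. Both were thus lower in GA, with log2 ratios of -0.38 and -0.20. Cluster 6, led by the matrix protease and acute phase genes Mmp3 and Saa3, stood at 2078 CPM in GA and 2120 CPM in control. In cluster 1 the level was 1398 CPM in GA and 658 CPM in control, a ratio of 1.09 (1.06 to 1.12), and in the dividing cluster 7 it was 818 and 376 CPM, a ratio of 1.12. In cluster 3, led by Ibsp, Alpl and Mmp13, it was the lower one in GA, at 196 against 500 CPM and a ratio of -1.35. These 3 ratios kept their direction without the 5 cells of each library with the most Sfrp2 UMIs, at 1.16, 1.15 and -1.61. The Bglap cluster 10 had almost none, 3.28 CPM in GA and 4.44 CPM in control.

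In 3 further clusters a high Sfrp2 level in GA rested on 1 or a few cells. In cluster 9, 1 of the 17 GA cells held 307 of the 309 UMIs, and the ratio of 6.27 (744 against 9.65 CPM) rested on it; without it the levels were 6.02 CPM in GA and, less the top control cell, 8.70 CPM in control. In cluster 11, the second osteoblast-like cluster, 1 cell held 399 of the 447 GA UMIs, and the ratio was 3.64 (839 against 67.3 CPM). Without the top cell of each library it was 1.07 (0.50 to 1.63). Without the 5 top cells, of only 17 in GA and 32 in control, it was -1.75 (-4.88 to 0.27). In cluster 5 the 5 top cells, of 27, held 97.6% of the 493 GA UMIs. There the ratio of 4.34 (502 against 24.8 CPM) was 4.22 (3.96 to 4.49) without the top cell of each library. It was 0.74 (-0.26 to 1.62) without the 5 top cells of each. With the 12 clusters weighted by their shares in control, the ratio of Sfrp2 over the lineage was 0.16.

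**Figure D4:**
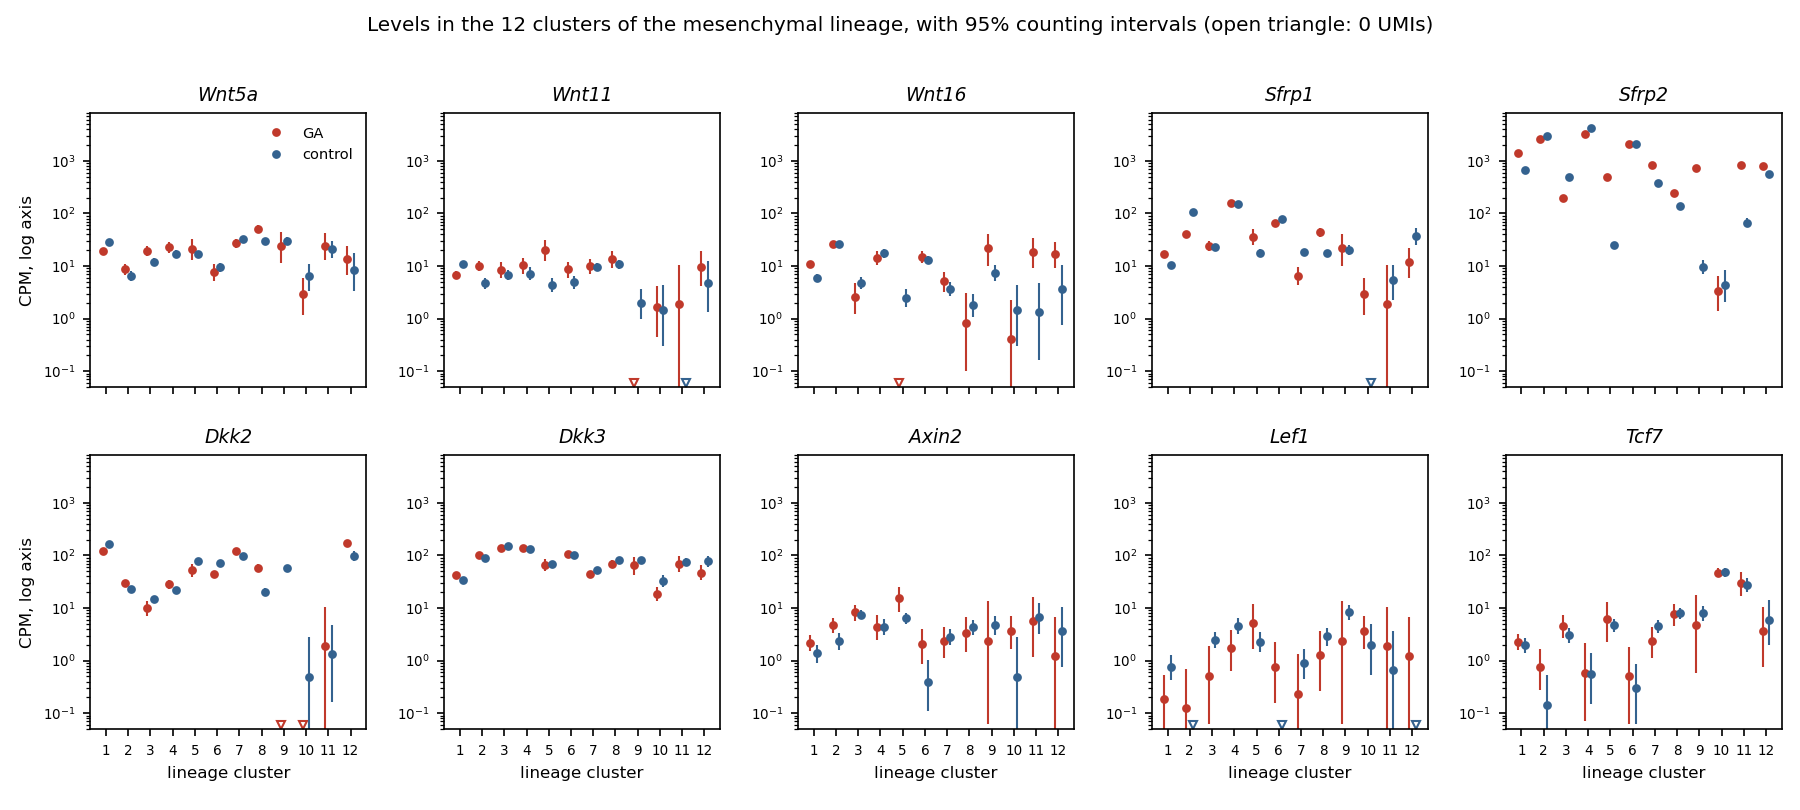
Level of the 10 genes in the 12 mesenchymal clusters, in CPM on a log axis, with the GA and control values side by side, 95% counting intervals as lines and open triangles for 0 UMIs. Tcf7 stands highest in osteoblast-like clusters 10 and 11, and Sfrp2 in clusters 2, 4 and 6.

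Sfrp1, too, had its highest level in cluster 4, at 157 CPM in GA and 152 CPM in control, with no difference there (a log2 ratio of 0.04). It was lower in GA in cluster 2, at 40.8 CPM (36.5 to 45.5) against 108 CPM (103 to 114), a ratio of -1.41 (-1.59 to -1.23) that was -1.75 without the top cells. The dividing cluster 7 also had less, 6.60 against 18.6 CPM. Clusters 1, 5 and 8 had more in GA. The level was 17.2 against 10.6 CPM in cluster 1, a ratio of 0.70 (0.43 to 0.96), 35.6 against 17.9 CPM in cluster 5, a ratio of 0.99 (0.43 to 1.52), and 44.1 against 17.5 CPM in cluster 8, led by Cdkn2a and Actg2, a ratio of 1.33. Without the 5 top cells of each library these ratios were 0.23, -0.34 and -0.063. In clusters 5 and 8 the 5 cells came from 27 and 35 GA cells but from 219 and 131 control cells. They were thus a larger part of the GA cells. Without only the top cell of each library the ratios in clusters 1, 5 and 8 were 0.45, 0.70 and 0.93.

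Dkk2 had its highest levels in other clusters than Sfrp1 and Sfrp2. Among clusters with over 30 cells in each library it was highest in clusters 1 and 7, at 124 and 123 CPM in GA and 165 and 99.8 CPM in control. It was thus lower in GA in cluster 1 (a log2 ratio of -0.41), and this cluster held a larger share of the lineage in GA. With the control shares as weights the ratio of Dkk2 was -0.19 in place of 0.07. In cluster 9 no Dkk2 UMI was counted in the 17 GA cells, where the interval reaches to 8.88 CPM, and control stood at 58.7 CPM (292 UMIs). Of those control UMIs, 1 cell held 102 and the 5 top cells held 81.2%. Without the 5 top cells control stood at 11.7 CPM. In the Bglap cluster 10 Dkk2 had no UMI in GA, where the interval reaches to 1.51 CPM, and stood at 0.494 CPM in control. Dkk3 was spread more evenly than Dkk2, from 18.5 and 33.1 CPM in cluster 10, its lowest, to 142 and 154 CPM in cluster 3, its highest.

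Among the ligands, Wnt5a was highest in cluster 8 in GA, at 50.8 CPM, where control stood at 30.4 CPM, a log2 ratio of 0.74 (0.42 to 1.06) that was 0.27 without the top cells. In cluster 1 it was lower in GA, at 19.0 against 28.1 CPM, and in the dividing cluster 7 it was 27.1 and 32.5 CPM. Its lowest level was in cluster 10, at 2.87 and 6.42 CPM. Wnt16 was highest in the Pi16 cluster 2, at 25.8 CPM in GA and 26.6 CPM in control, and stood at 14.4 and 17.4 CPM in cluster 4. The higher Wnt16 of the GA lineage was seen in cluster 1, at 10.7 against 6.02 CPM, a ratio of 0.83 (0.49 to 1.18). Among the 8 lineage clusters with the most Wnt11 UMIs, the gene was higher in GA in 7 and lower in 1, cluster 1. Of these intervals, 3 were above 0 and 1 was below. Wnt11 stood at 6.82 against 11.03 CPM in cluster 1, a ratio of -0.69, and at 10.0 against 4.72 CPM in cluster 2, a ratio of 1.08 (0.59 to 1.58). In cluster 5 it stood at 20.4 against 4.42 CPM from 20 and 46 UMIs, a ratio of 2.20 (1.37 to 2.99). Without the 5 top cells of each library that ratio was 1.09 (-0.63 to 2.45).

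Tcf7 was highest in the osteoblast-like clusters of the lineage. In the Bglap cluster 10 it stood at 47.2 CPM (39.0 to 56.7) in GA and 47.9 CPM (38.8 to 58.4) in control, a log2 ratio of -0.02, and in osteoblast-like cluster 11 at 30.03 and 27.97 CPM. All the other clusters lay between 0.15 and 8.04 CPM. Cluster 10 held 48.9% of the lineage's Tcf7 UMIs in GA and 21.9% in control, and with the clusters weighted alike the ratio was 0.02 in place of 0.23. Axin2 was highest in clusters 5 and 3 in GA, at 15.3 and 8.23 CPM, the first from only 15 UMIs, and in cluster 3 in control, at 7.46 CPM, with cluster 5 at 6.44 CPM. In cluster 2 it stood at 4.69 against 2.33 CPM, a ratio of 1.01 (0.29 to 1.74). Lef1 in the control library was highest in the Ptgds cluster 9, at 8.24 CPM from 41 UMIs, of which the 5 top cells held 65.9%. The 17 GA cells of that cluster had 1 UMI, or 2.41 CPM (0.06 to 13.4), an interval that holds the control level. Next in control was cluster 4 at 4.56 CPM, where 1 cell held 72.7% of 33 UMIs.

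The levels over the clusters ran together in the libraries to a different degree for each gene. Over the 12 clusters, Pearson's r between the libraries on the log2(CPM + 1) scale was 0.97 for Tcf7, 0.92 for Dkk3, 0.84 for Wnt5a and 0.81 for Sfrp1. It lay between 0.61 and 0.72 for Dkk2, Sfrp2, Wnt11 and Wnt16, and was 0.53 for Axin2 and 0.50 for Lef1. Counts were few for the last pair, with 1 to 37 Axin2 UMIs and 1 to 9 Lef1 UMIs per cluster in GA. For Sfrp2, the GA levels of clusters 5, 9 and 11 rested on 1 or a few cells, as described above. The part of these limits in the r values was not tested. Tcf7 ran opposite to both Sfrp genes, with r of -0.77 in GA and -0.89 in control for Sfrp1 and -0.79 and -0.85 for Sfrp2. Wnt16 ran with Sfrp2 (0.70 and 0.71), Sfrp1 with Dkk3 (0.71 and 0.70) and Wnt11 with Dkk2 (0.85 and 0.67). These correlations describe 12 clusters whose cells were digested and sequenced together within each library. The clusters differ in depth, with medians per cell in GA from 764 UMIs in cluster 12 to 84778 UMIs in cluster 7.

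Over the 34 clusters of all cells, with both libraries summed and 15199 genes compared, the genes outside the pathway with patterns most like each member's were named by Pearson's r of log2(CPM + 1). Sfrp2 was closest to Fndc1 (0.98), Prkg2 (0.97) and AW551984 (0.97), Wnt5a to Pappa, Sgcd and Sobp (each 0.97), and Wnt16 to Angptl1 (0.94), C1s1 (0.94) and Apol7a (0.93). Sfrp1 was closest to Insyn1 (0.95), Steap1 (0.95) and Il33 (0.94), Dkk2 to Dbn1 (0.94), Hspb8 (0.93) and Pxdn (0.92), and Dkk3 to Cacna2d1 (0.94), Gpx7 (0.93) and Gm15867 (0.92). The members with part of their UMIs in blood cells had less close neighbours. These were Nudt17 (0.84), Adam23 (0.82) and Efna2 (0.78) for Wnt11, Xkr6 (0.90), Spock2 (0.88) and Nmnat2 (0.85) for Axin2, Wscd2 (0.87), Zap70 (0.84) and Stk32c (0.83) for Tcf7, and Edaradd (0.85), Mterf2 (0.82) and 9330175E14Rik (0.81) for Lef1.

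The rest of the pathway was described in the mesenchymal lineage by a list of 84 genes that includes the 10. Of these, 71 had at least 50 UMIs, 2 of them at least 2-fold higher in GA and 4 at least 2-fold lower, and their median log2 ratio was -0.02. The shares over all genes were the 2.69% and 3.33% given above, against which these counts, and the smaller ones by list below, are to be read. The ligands had the widest spread. Of 19, 13 had enough UMIs, 1 was higher and 2 were lower, with a median of 0.22. Wnt10b, a ligand that favours bone formation over fat, stood at 5.61 against 2.07 CPM, a ratio of 1.44 (1.17 to 1.71), and Wnt2 at 75.4 against 40.5 CPM, a ratio of 0.90 (0.83 to 0.96). Wnt10a was lower, at 0.15 against 0.56 CPM from 7 and 58 UMIs, a ratio of -1.90, as was Wnt6, at 0.47 against 1.54 CPM from 22 and 161 UMIs, a ratio of -1.72. Wnt1 stood at 0.51 against 0.27 CPM from 24 and 28 UMIs (0.93) and Wnt9a at 31.4 against 27.0 CPM (0.22).

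Of 13 secreted antagonists, 9 had enough UMIs, with a median of 0.29, and 1 was past 2-fold. That was Wif1, a secreted inhibitor that binds Wnt ligands, at 18.6 against 9.29 CPM and a ratio of 1.00 (0.87 to 1.13), close to the threshold. The lowest ratio of this list was that of Sfrp4, at 51.4 against 88.0 CPM and -0.78 (-0.84 to -0.71), named here after its value was seen. Of 4 R-spondins, which strengthen Wnt signals at the receptor, 3 had enough UMIs. Rspo3 stood at 18.6 against 30.8 CPM, a ratio of -0.73, and Rspo2 at 1.78 against 1.19 CPM, a ratio of 0.59. Of 20 receptors and coreceptors, 19 had enough UMIs and 0 were past 2-fold in either direction, with a median of -0.03. Those with the most UMIs were Ryk, at 150 against 149 CPM (0.01), and Ror2, at 98.3 against 90.2 CPM (0.12), both receptors for Wnt5a. Fzd10 stood at 0.62 against 0.40 CPM (0.62) and Fzd9 at 0.62 against 1.15 CPM (-0.90).

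Of the genes that act inside the cell, Wls and Porcn, needed for ligand secretion, had ratios of -0.08 (273 against 290 CPM) and -0.27 (8.97 against 10.8 CPM). The 9 cytoplasmic genes had a median of -0.07, with the β-catenin gene Ctnnb1 at 167 against 182 CPM (-0.12) and the kinase gene Csnk1a1 at 244 against 278 CPM (-0.19). Of 8 nuclear factors, Lef1 was the one past 2-fold, and Tcf7l2 and Tcf7l1, the TCF factors with the most UMIs in these cells, stood at 156 against 133 CPM (0.23) and 66.7 against 54.5 CPM (0.29). Of 12 targets and feedback genes, 11 had enough UMIs, with a median of -0.06, and 1 was lower past 2-fold, the receptor ubiquitin ligase gene Rnf43, at 0.42 against 0.86 CPM from 20 and 90 UMIs (-1.02). Ccnd1 stood at 26.9 against 36.1 CPM (-0.43) and Znrf3 at 24.3 against 30.5 CPM (-0.33).

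**Figure D5:**
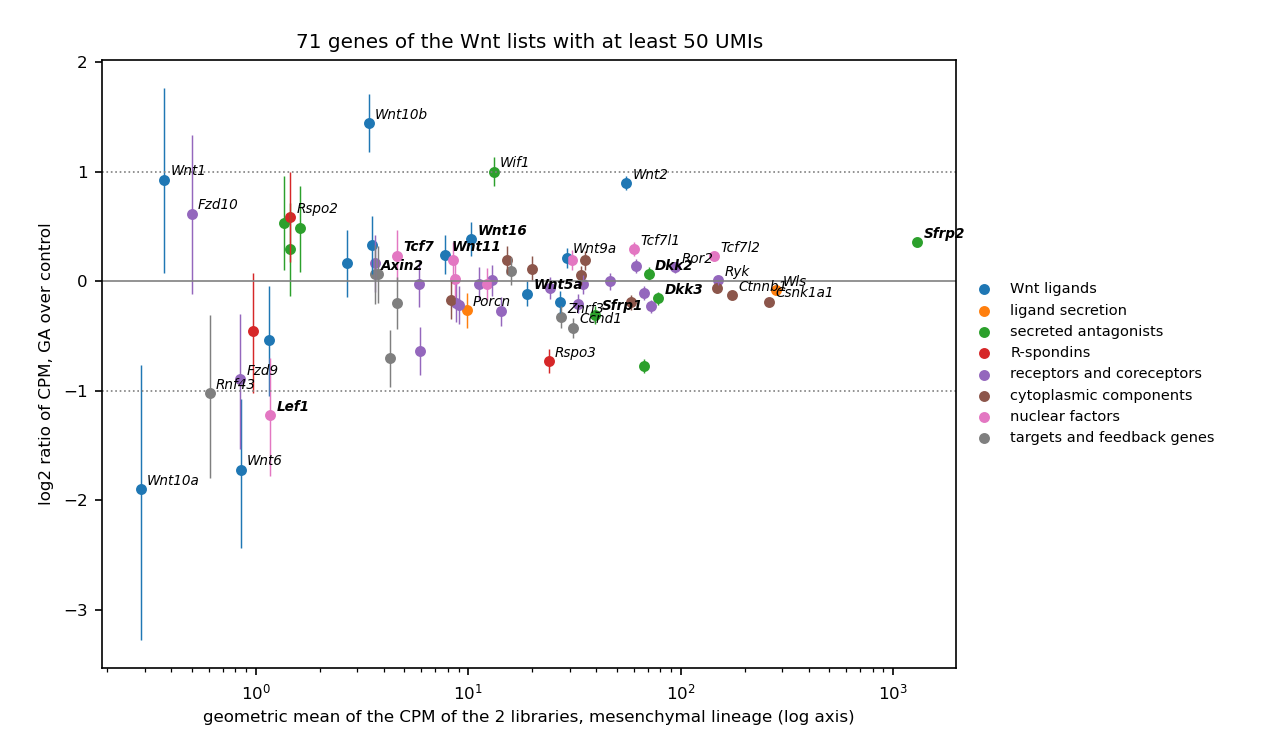
Log2 ratio of GA over control in the mesenchymal lineage, with 95% counting intervals, against the geometric mean CPM of the 2 libraries on a log axis, for the 71 Wnt pathway genes with at least 50 UMIs, coloured by list and with the members in bold. The ligands spread from -1.90 to 1.44, and the receptors stay within 2-fold.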

How the data were processed

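The authors deposited raw counts, as UMIs per gene and cell barcode, for 1 GA and 1 control library (10x Genomics 3′ chemistry, mm10; Cell Ranger 7.0.1 per the file headers), with totals of 182949385 and 214993030 UMIs in 9322 and 8718 barcodes. Cells with 500 to 140000 UMIs, 200 to 9500 genes and at most 15% mitochondrial UMIs were kept (9036 and 8093), and 674 and 564 scored as doublets against simulated doublets were removed. Pearson residuals of 2000 variable genes, with Wnt pathway genes left out, were reduced to 50 components, corrected with a Harmony-type step and clustered with Leiden (leidenalg 0.10.2, igraph 0.11.9, Python 3.11.15, NumPy 2.4.6, SciPy 1.17.1). Classes were named from marker lists by rules with thresholds that were chosen with the data in view; a low-depth remainder of 141 and 243 cells stayed unnamed. Counts were summed per class and library. Levels carry exact Poisson intervals, shares exact Clopper-Pearson intervals and ratios exact conditional binomial intervals, all at 95% and for counting error only. A gene was called past 2-fold among genes with at least 50 UMIs; no test was run with 1 library per group. Simulated counts with known folds were used to check the ratios.

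The members and the pathway lists were chosen with earlier results of these data known. Named from the lists were the 5 highest and 5 lowest ratios, the 2 genes of each list with the most UMIs, and the 3 genes closest in pattern to each member.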

Additional observations from a re-analysis of the deposited data

Results flagged for a closer look

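Among members with at least 50 UMIs in a named class, in each of 4 cases the ratio of GA over control of a member went in opposite directions in different classes of cells, with intervals that do not include 0. The differences themselves were not tested, since each group is 1 library. Sfrp2 had a log2 ratio of 0.36 in the mesenchymal lineage and of -0.58 (-0.91 to -0.24) in neutrophil-like cells, a difference of 0.94. In mononuclear phagocyte-like cells it was -0.32 (-0.59 to -0.05), a difference of 0.68. In erythroid-like cells it was -5.07 (-8.15 to -3.16), a difference of 5.43 that rests on 2 UMIs in GA and 68 in control; 1 cluster of that class, of 12 and 15 cells, had both haemoglobin and collagen genes among its leading genes. The Sfrp2 level in the first pair of blood classes was low in both libraries, at 5.14 CPM in GA and 7.66 CPM in control for neutrophil-like cells, which should lack the gene. Other blood classes had a like level, at 4.42 and 5.33 CPM in B-like cells, 3.15 and 7.43 CPM in T or NK-like cells and 3.65 and 4.46 CPM in progenitor-like cells. The source of these few UMIs was not tested. Lef1 had a ratio of 0.36 in B-like cells and of -1.23 in the mesenchymal lineage, a difference of 1.59. Classes with fewer UMIs held further such pairs, for example Wnt11 at -1.07 (-2.01 to -0.10) in neutrophil-like cells from 24 and 18 UMIs, Dkk3 at 1.48 (0.07 to 3.12) in T or NK-like cells from 17 and 6, and Lef1 at 3.12 (0.53 to 8.48) in progenitor-like cells from 29 and 1. Few cells carried these UMIs in GA, 6 of 185 T or NK-like cells for Dkk3 and 4 of 607 progenitor-like cells for Lef1. Beside the Lef1 difference stand the ratio of 0.03 in B-like cells with clusters weighted by their control shares and that of -0.61 in the lineage with the same weighting.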

How the results depend on the processing

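Over 18 other settings of the processing, the ratio in the mesenchymal lineage kept its direction for Wnt11, Sfrp1, Sfrp2, Dkk3 and Tcf7, at 0.13 to 0.93, -0.40 to -0.21, 0.15 to 0.42, -0.18 to -0.02 and 0.02 to 0.67. It took the other sign in 3 settings for Dkk2 (-0.19 to 0.10) and in 1 each for Wnt5a (-0.17 to 0.07), Wnt16 (-0.46 to 0.52, thinned, from 17 and 52 UMIs), Axin2 (-0.01 to 0.74) and Lef1. The count of members past 2-fold, 1 as reported, was 0 with no doublets removed (Lef1 at -0.43), with cells thinned to 2000 UMIs (Lef1 at 0.74, from 3 and 4 UMIs), with the 12 clusters weighted by control shares, and with that weighting and without the 5 top cells. Lef1 was past 2-fold in 14 of the 18. The median over the members, 0.06, was 0.15 when thinned. Of the pathway lists, 6 genes were past 2-fold as reported, 3 of 62 with a minimum of 200 UMIs, 15 at 1.5-fold and 3 of 43 when thinned. Without the 5 cells with most UMIs, 12 of the 71 ratios by cluster that had at least 50 UMIs and could be recomputed changed sign. Of these, 3 had been past 2-fold, Sfrp1 in cluster 8 (to -0.063), Dkk2 in cluster 8 (to -0.14) and Sfrp2 in cluster 11 (to -1.75). Sfrp1 in cluster 5 turned from 0.99 to -0.34. Without only the top cell of each library these ratios were, in that order, 0.93, 1.10, 1.07 and 0.70. Clusters 5, 8 and 11 had fewer GA than control cells, so 5 cells were a larger part of GA. Sfrp2 in cluster 9 had no GA UMI left without the 5 top cells, and was at -0.53 without the top cell of each library. The settings that weight clusters or leave out single cells or clusters were chosen after seeing the data. With cells thinned to 2000 UMIs, 17 GA and 21 control lineage cells had a Wnt11 UMI. For Tcf7 these counts were 8 and 14, and for Axin2 9 and 11. The highest ratios of Wnt11, Tcf7 and Axin2 given above came from that setting. The cause of changes under thinning was not tested. No paired analysis was possible because each group has 1 library. Depth limits Lef1 and Axin2 in the mesenchymal lineage most, with 36 and 174 UMIs in GA.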
